A study of Mus musculus with 4 samples.

Results

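Messenger RNA of 42 mouse genes of meiotic recombination and DNA repair was compared between the right testes of hemicastrated and of sham-operated mice. The list was chosen by gene names, with earlier results of these data known. Under these names 41 of the 42 genes have a row among the 22073 rows of the table, and Spata22 is not analysed here. Fanca is listed at 0 in all 4 libraries, 5 members (Brca1, Fancm, Rad21l, Chek2 and Mei4) had a mean under 1 FPKM, and the 35 members with a mean of at least 1 FPKM were tested. FPKM is the number of sequenced fragments per kilobase of transcript, scaled to the mapped fragments of the library.

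The hemicastrated group is 2 mice of the outbred KM strain whose left testis was removed before puberty, and the control group is 2 mice of that strain with a sham operation at the same time. The source label of the controls reads normal mouse and names no sham operation. Each of the 4 libraries was made from poly(A) RNA of the right testis, taken after maturity. No genetic change and no drug is named for either group, and no age in days or weeks is stated in what was read here. There are 2 samples per group in the labels but 3 mice per group in the protocol, which also has RNA of 4 individuals, so each library is taken as 1 mouse. Genomic DNA is the molecule in the labels, but the protocol and the file describe RNA.

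Early in meiotic prophase, SPO11 cuts both strands of the DNA at many places in each spermatocyte. The MRE11, RAD50 and NBN complex trims the ends, DMC1 with its helpers carries the single strands into the homologous chromosome, and a few of the resulting joints are turned into crossovers by MSH4, MSH5, MLH3 and their partners. ATM and ATR signalling marks the breaks and holds the cell until they are repaired, and cohesin with meiotic subunits keeps the sister chromatids together along the axis. In testis these events take place in spermatocytes, while many of the repair proteins also work in any dividing cell.

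Promoter sequences are shown for 4 members on which the description turns, picked after their values were seen. They are Stag3 and Psmc3ip, which had the highest levels, Mnd1, whose protein works as a pair with that of Psmc3ip but whose level was far lower, and Dmc1, the meiotic strand exchange recombinase. Each runs 5′ to 3′ from 250 bases before to 50 bases after a start listed in RefSeq (GRCm38.p6). These starts can differ from the gene starts in GENCODE, which gave the gene positions used below. The whole Stag3 window lies within the GENCODE gene, which begins at 138280240. Capitals mark any of these words, on either strand: CCAAT (bound by NF-Y), CNCCTCAG (bound by STRA8 with MEIOSIN), the E2F words TTTCCCGC, TTTGGCGC, TTTCGCGC and TTTGCCGC, and the MYB words, which are AACGG or AACTG after a C or a T.
Stag3, chr5:138280259-138280558, plus strand: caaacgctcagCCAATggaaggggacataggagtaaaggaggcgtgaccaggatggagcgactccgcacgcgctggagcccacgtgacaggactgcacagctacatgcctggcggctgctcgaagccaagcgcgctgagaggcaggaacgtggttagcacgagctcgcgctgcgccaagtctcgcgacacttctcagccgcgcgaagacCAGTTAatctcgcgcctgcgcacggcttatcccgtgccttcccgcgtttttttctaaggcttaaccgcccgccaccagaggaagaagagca
Psmc3ip, chr11:101095386-101095685, minus strand: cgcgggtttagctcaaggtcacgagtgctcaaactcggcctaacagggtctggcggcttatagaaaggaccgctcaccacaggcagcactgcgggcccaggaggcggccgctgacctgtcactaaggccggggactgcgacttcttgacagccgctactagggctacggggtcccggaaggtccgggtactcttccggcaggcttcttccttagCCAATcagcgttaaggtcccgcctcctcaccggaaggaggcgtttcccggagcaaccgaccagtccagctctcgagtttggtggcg
Mnd1, chr3:84155737-84156036, minus strand: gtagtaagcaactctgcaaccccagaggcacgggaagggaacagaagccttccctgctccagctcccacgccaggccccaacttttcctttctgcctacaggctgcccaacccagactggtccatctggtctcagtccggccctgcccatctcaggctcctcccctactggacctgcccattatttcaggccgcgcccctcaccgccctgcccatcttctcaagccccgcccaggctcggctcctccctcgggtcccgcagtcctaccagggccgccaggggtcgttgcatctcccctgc
Dmc1, chr15:79605060-79605359, minus strand: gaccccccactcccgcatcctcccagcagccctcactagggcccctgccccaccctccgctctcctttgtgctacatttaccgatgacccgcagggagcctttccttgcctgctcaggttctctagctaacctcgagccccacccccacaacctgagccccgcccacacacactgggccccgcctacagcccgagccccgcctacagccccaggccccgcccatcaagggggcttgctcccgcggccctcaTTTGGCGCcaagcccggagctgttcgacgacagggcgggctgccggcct
Stag3 holds 1 CCAAT and 1 MYB word, Psmc3ip holds 1 CCAAT word, Dmc1 holds 1 E2F word and Mnd1 holds none of the words. The CpG count in these windows was 30 for Stag3, 24 for Psmc3ip, 18 for Dmc1 and 12 for Mnd1.

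RefSeq promoters were matched by symbol for 35 of the 42 members, giving 38 windows, since 3 genes have 2 listed starts. The member windows were rich in CpG, as were those of other genes expressed in these testes, with a median of 22 CpG, against 20 over 11476 windows of genes tested and 7 over all 32841 windows. A CCAAT word was in 63.2% of member windows, against 38.1% of windows of genes tested and 37.4% of all windows. An E2F word was in 23.7% of member windows (9 windows of Brca2, Chek2, Dmc1, Mdc1, Msh5, Msh6, Rad51c and Topbp1), against 3.96% of windows of genes tested and 2.27% of all windows, and it was also in 2 of 10 windows of synaptonemal complex genes. The share with CNCCTCAG was 7.89% (Hfm1, Msh5 and Pms2), against 9.52% of windows of genes tested, 7.94% of all windows and 3 of the 10 synaptonemal complex windows, and that with a MYB word was 23.7%, against 26.6% of windows of genes tested and 28.3% of all windows. These shares describe letters in the windows, no hits of different words overlapped in the member windows, and binding was not measured.

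The members differed far more from one another in level than between the hemicastrated and control testes, and the libraries of the groups overlapped in 23 of the 35 tested members. The groups did not overlap in the other 12 (34.3%), which is near the 41.2% of all genes tested. By mean over the 4 libraries, 6 members were above 20 FPKM (Stag3, Psmc3ip, Mdc1, Atr, Rec8 and H2afx), 2 more above 10 FPKM (Smc1b and Spo11), and 27 lay between 1 and 10 FPKM. The median level of the tested members was 4.75 FPKM, against 7.56 FPKM over all 11343 genes tested. Summed over the 41 members, the level was 468.6 and 454.1 FPKM in the hemicastrated testes and 449.5 and 435.2 FPKM in the control testes. The group means of Psmc3ip alone lay further apart than those of this sum. It was at 100.2 and 93.6 FPKM in the hemicastrated testes, against 78.7 and 70.1 FPKM in the control testes. The sum thus does not show a rise across the list.

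**Figure D1:**
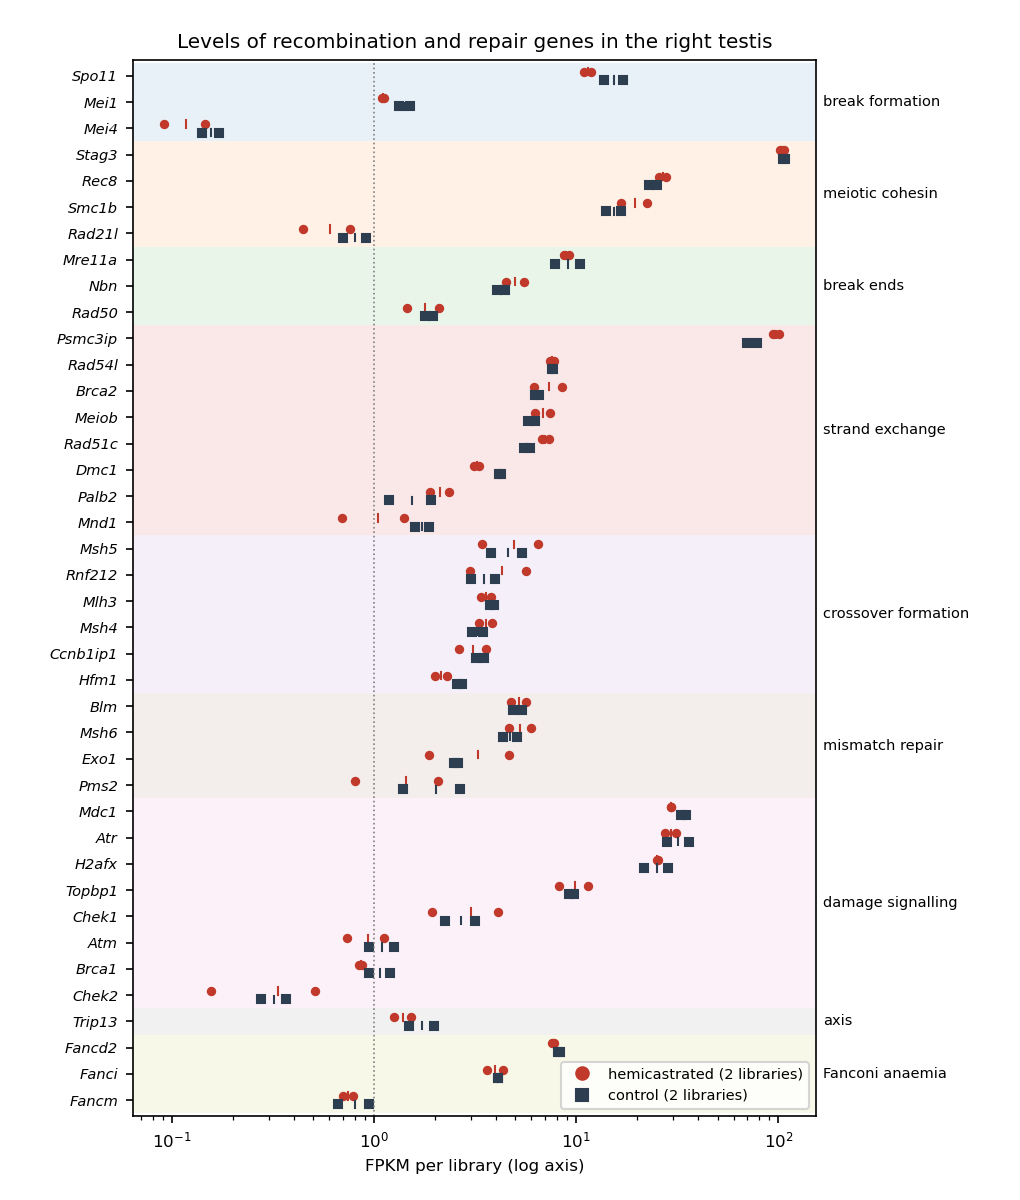
FPKM of the 40 members above 0, on a log axis, grouped by role; red circles are the 2 hemicastrated libraries, dark squares the 2 control libraries, and short bars the group means. The dotted line marks 1 FPKM, and the circles and squares of most members lie at the same level, from 105.5 FPKM on average for Stag3 to 0.137 for Mei4.

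No member changed after hemicastration by the test across all genes. Among the 35 tested, limma with Benjamini-Hochberg adjustment called 0 higher and 0 lower at an adjusted p under 0.05, and the smallest adjusted p was 0.211; over all 11343 genes it called 1.3%, or 147 genes, with 0.106% higher and 1.19% lower. At an unadjusted p under 0.05, limma took 2 members (Psmc3ip and Spo11), against 10.5% of all genes tested. The log2 fold change, taken throughout as the hemicastrated mean less the control mean of log2(FPKM + 1), was positive for 17 members and negative for 18, whereas 43.4% of all genes were positive. Its median was -0.008 over the members and -0.026 over all genes, and it ran from -0.44 for Mnd1 to 0.38 for Psmc3ip. With 2 libraries a group, an exact permutation test of 1 gene cannot give a two-sided p under 0.33. In whole testis RNA, fewer cells of a type and less RNA per cell cannot be told apart.

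The intervals show how large a change these libraries leave room for. The 95% interval of the log2 fold change lay within 1 to either side of 0 for 34 of the 35 members, against 94.5% of all genes tested. The exception was Pms2, from -1.08 to 0.42. For 16 members the interval lay within 0.5 to either side. Because 1 is added to each value, this scale understates changes of members with low FPKM.

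**Figure D2:**
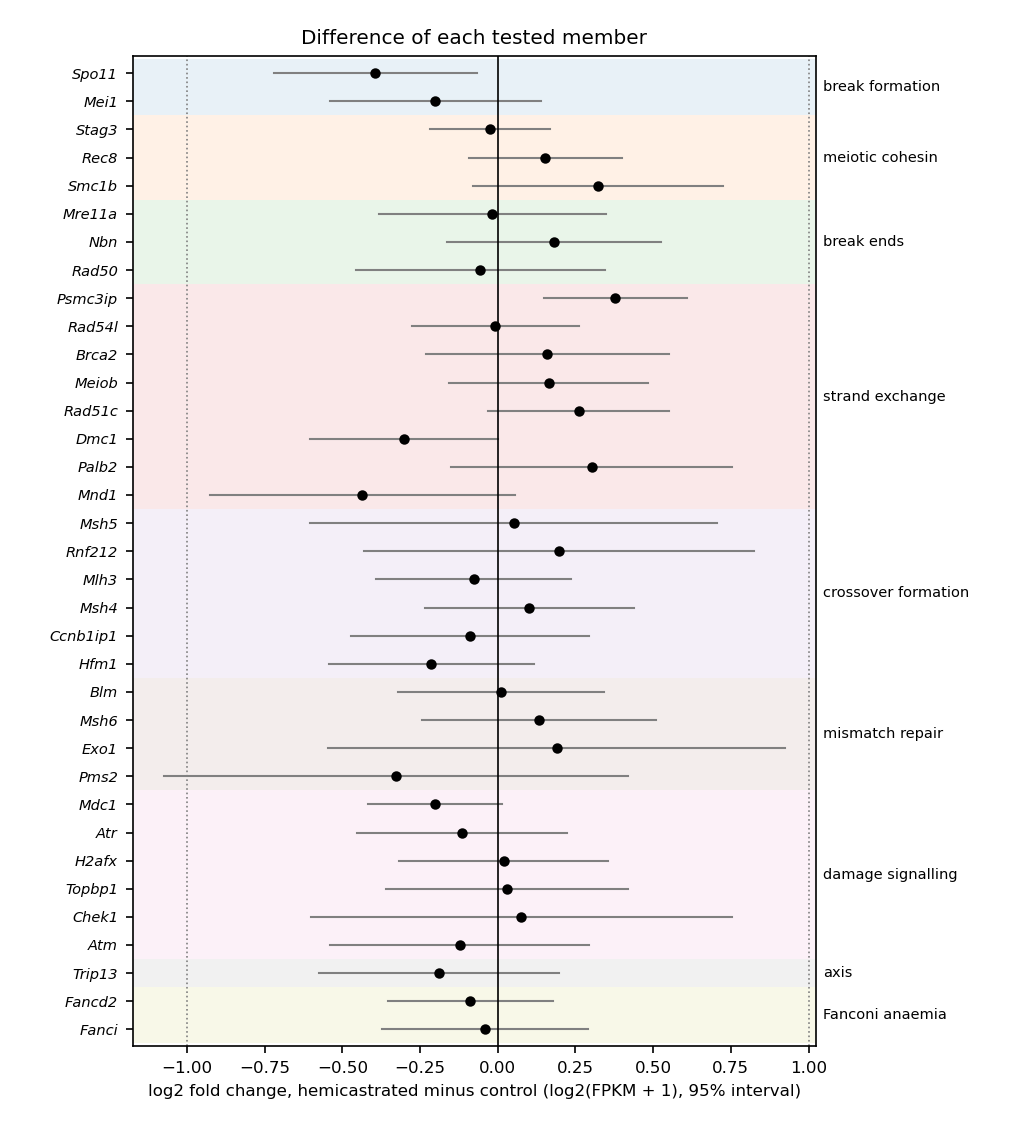
Log2 fold change of each of the 35 tested members in log2(FPKM + 1), hemicastrated over control (points), with its 95% interval from limma (lines), grouped by role. The solid line is at 0 and the dotted lines are at 1 to either side; the intervals of Psmc3ip and Spo11 do not reach 0, and neither gene passed the adjusted threshold.

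Both tested members of break formation had lower values in the hemicastrated testes, short of the threshold. Spo11 (ENSMUSG00000005883, chromosome 2, 172977700 to 172993576, plus strand, GRCm38), which encodes the enzyme that makes the breaks, was at 11.9 and 10.9 FPKM in the hemicastrated testes, against 17.1 and 13.7 FPKM in the control testes. Both hemicastrated values were below both control values, and the log2 fold change was -0.39 (SE 0.14, limma adjusted p = 0.374). Mei1, which is needed for break formation in mice, was at 1.11 and 1.09 FPKM in the hemicastrated testes, against 1.51 and 1.33 FPKM in the control testes. The groups of Mei1 did not overlap either, and over all genes tested 24.8% were so placed lower. Of 6 other tested genes of break formation, 4 were so placed higher (Rec114, Iho1, Hormad1 and Hormad2) and 0 lower, against 16.3% higher over all genes. Mei4, which encodes an axis-bound partner of the break machinery, was at 0.0908 and 0.145 FPKM in the hemicastrated testes, against 0.140 and 0.170 FPKM in the control testes, and was not tested at this level.

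Cohesin genes of meiosis held the highest level of the list. Stag3, the STAG subunit of meiotic cohesin, was at 102.2 and 107.1 FPKM in the hemicastrated testes, against 105.1 and 107.7 FPKM in the control testes. Its groups overlapped, and the 95% interval of its log2 fold change ran from -0.22 to 0.17. The kleisin Rec8, the ring-closing subunit, was at 25.7 and 27.9 FPKM in the hemicastrated testes, against 25.1 and 22.9 FPKM in the control testes. Smc1b, the meiotic SMC1, was at 22.5 and 16.6 FPKM in the hemicastrated testes, against 13.9 and 16.7 FPKM in the control testes, so that the higher of the control values lay between the hemicastrated ones (log2 fold change 0.32, SE 0.17, limma adjusted p = 0.581). Rad21l, the other meiotic kleisin, was at 0.761 and 0.445 FPKM in the hemicastrated testes, against 0.702 and 0.910 FPKM in the control testes. The ratio of Rec8 to Rad21l was 33.8 and 62.7 in the hemicastrated testes, against 35.8 and 25.1 in the control testes.

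The complex that trims break ends had 3 tested genes, with log2 fold changes from -0.06 to 0.18. Mre11a, its nuclease, was at 9.15 and 8.67 FPKM in the hemicastrated testes, against 10.4 and 7.82 FPKM in the control testes. Nbn, the subunit that brings in ATM, was at 4.47 and 5.50 FPKM in the hemicastrated testes, against 4.45 and 4.06 FPKM in the control testes. The groups of Nbn did not overlap, but the lower hemicastrated and the higher control value nearly met. Rad50, the ATPase subunit, was at 2.10 and 1.46 FPKM in the hemicastrated testes, against 1.96 and 1.78 FPKM in the control testes.

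Strand exchange genes included the member with the smallest p. Psmc3ip (ENSMUSG00000019303, chromosome 11, 101091823 to 101095436, minus strand, GRCm38) encodes HOP2, which pairs with MND1 to stimulate DMC1. It was at 100.2 and 93.6 FPKM in the hemicastrated testes, against 78.7 and 70.1 FPKM in the control testes. Both hemicastrated values were above both control values, and the log2 fold change was 0.38 (SE 0.10, 95% interval 0.15 to 0.61, limma adjusted p = 0.211). Of its exon bases, 21.2% are shared with Mlx on the opposite strand, and the library protocol names no step that marks the strand. Mlx was at 3.62 and 2.89 FPKM in the hemicastrated testes, against 2.197 and 2.87 FPKM in the control testes, far below Psmc3ip in each library.

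The partner gene Mnd1 (chromosome 3, 84087933 to 84155786, minus strand, GRCm38) was at 0.690 and 1.41 FPKM in the hemicastrated testes, against 1.60 and 1.87 FPKM in the control testes. Its groups did not overlap, with a log2 fold change of -0.44 (SE 0.20, limma adjusted p = 0.535), and its point estimate thus has the sign opposite to that of Psmc3ip. The FPKM of Psmc3ip was 145 and 66.5 times that of Mnd1 in the hemicastrated testes, against 49.3 and 37.5 times in the control testes. A processed pseudogene, Mnd1-ps, matches 94.2% of the longest Mnd1 transcript at 97.1% identity, so reads could be shared between them and the level of Mnd1 is uncertain.

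Dmc1 (chromosome 15, 79561497 to 79605109, minus strand, GRCm38) was at 3.31 and 3.12 FPKM in the hemicastrated testes, against 4.22 and 4.15 FPKM in the control testes. Its groups stood apart by more than the spread within either, with a log2 fold change of -0.30 (SE 0.13, limma adjusted p = 0.48). Rad51c (chromosome 11, 87376645 to 87404954, minus strand), which acts in homologous recombination, was at 6.73 and 7.29 FPKM in the hemicastrated testes, against 5.90 and 5.48 FPKM in the control testes (log2 fold change 0.26, SE 0.12, limma adjusted p = 0.533). These groups did not overlap, and the sign was opposite to that of Dmc1. Palb2, which links BRCA1 to BRCA2, was at 2.35 and 1.88 FPKM in the hemicastrated testes, against 1.90 and 1.19 FPKM in the control testes (log2 fold change 0.30, SE 0.19, limma adjusted p = 0.65). Here one control value lay between the hemicastrated ones.

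Of the other strand exchange members, Brca2, which loads DMC1 onto single-stranded DNA, was at 8.49 and 6.16 FPKM in the hemicastrated testes, against 6.51 and 6.25 FPKM in the control testes. Meiob, a meiotic single-strand binding protein, was at 7.45 and 6.26 FPKM in the hemicastrated testes, against 6.23 and 5.76 FPKM in the control testes. The groups of Brca2 overlapped and those of Meiob did not. Rad54l, a motor protein of strand invasion, was at 7.72 and 7.42 FPKM in the hemicastrated testes, against 7.64 and 7.59 FPKM in the control testes. Its exons share 15.4% of their bases with Lrrc41 on the opposite strand, which stood at 43.9 and 48.2 FPKM in the hemicastrated testes and at 46.0 and 46.7 FPKM in the control testes, so the level of Rad54l is uncertain. Spata22, the partner of MEIOB, shares 80.5% of its exon bases with the locus Gm49340, whose row ran from 6.40 to 6.99 FPKM over the 4 libraries and was not counted as a member.

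Crossover genes had levels under 10 FPKM, and Rnf212 and Msh5 among them differed most between the hemicastrated testes. Rnf212, a RING protein that stabilises crossover sites, was at 2.96 and 5.65 FPKM in the hemicastrated testes, against 3.03 and 3.98 FPKM in the control testes. Msh5, which forms a clamp with MSH4, was at 3.42 and 6.43 FPKM in the hemicastrated testes, against 5.39 and 3.78 FPKM in the control testes. In both genes the second hemicastrated library was the highest of the 4. Msh4 was at 3.83 and 3.30 FPKM in the hemicastrated testes, against 3.45 and 3.06 FPKM in the control testes, so the ratio of Msh5 to Msh4 was 0.892 and 1.95 in the hemicastrated testes, against 1.56 and 1.24 in the control testes.

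Hfm1, a meiotic helicase of the crossover pathway, was at 2.29 and 2.01 FPKM in the hemicastrated testes, against 2.72 and 2.58 FPKM in the control testes. Its groups did not overlap. Ccnb1ip1, which encodes the ligase HEI10, was at 3.56 and 2.64 FPKM in the hemicastrated testes, against 3.19 and 3.48 FPKM in the control testes. Of its exon bases, 12.4% are shared with Rpph1 on the same strand, which has no row, so the level of Ccnb1ip1 is uncertain. Mlh3, part of the nuclease that resolves crossovers, was at 3.78 and 3.36 FPKM in the hemicastrated testes, against 3.74 and 3.90 FPKM in the control testes. Their groups overlapped.

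Exo1 had the widest gap between libraries of one group among the tested members. This exonuclease of mismatch repair and crossover formation was at 1.87 and 4.64 FPKM in the hemicastrated testes, against 2.59 and 2.47 FPKM in the control testes. Pms2, which acts in mismatch repair, was at 0.800 and 2.07 FPKM in the hemicastrated testes, against 2.65 and 1.39 FPKM in the control testes. For Exo1 the control values lay between the hemicastrated ones. Msh6, a subunit of the mismatch sensor, was at 5.93 and 4.62 FPKM in the hemicastrated testes, against 4.33 and 5.10 FPKM in the control testes, and the processed pseudogene Gm11855 matches 44.0% of its transcript at 94.1% identity. Blm, the helicase that takes joint molecules apart, was at 5.66 and 4.74 FPKM in the hemicastrated testes, against 5.41 and 4.88 FPKM in the control testes. The groups overlapped in these 4 genes.

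Damage signalling genes were led by Mdc1, Atr and H2afx. Mdc1 (chromosome 17, 35841515 to 35859670, plus strand), which spreads the damage mark along chromatin, was at 29.5 and 29.3 FPKM in the hemicastrated testes, against 33.1 and 34.8 FPKM in the control testes. Its groups stood apart by a small step, with a log2 fold change of -0.20 (SE 0.09, limma adjusted p = 0.509). Atr, the kinase that silences the unpaired sex chromosomes in mouse spermatocytes, was at 31.1 and 27.5 FPKM in the hemicastrated testes, against 28.1 and 35.9 FPKM in the control testes. H2afx, the histone that these kinases phosphorylate, was at 25.3 and 25.1 FPKM in the hemicastrated testes, against 28.4 and 21.7 FPKM in the control testes. Both hemicastrated values of H2afx lay between the control values. Transcripts of protein-coding H2A genes match part of that of H2afx at 90.1% to 91.7% identity, so its level is uncertain to that extent.

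The other signalling members were lower in level. Topbp1, the activator of ATR, was at 11.4 and 8.25 FPKM in the hemicastrated testes, against 9.78 and 9.19 FPKM in the control testes. Chek1, the kinase downstream of ATR, was at 4.11 and 1.92 FPKM in the hemicastrated testes, against 3.14 and 2.25 FPKM in the control testes. In both genes the first hemicastrated library was the highest of the 4 and the second the lowest. Atm, the kinase activated by the breaks themselves, was at 1.12 and 0.736 FPKM in the hemicastrated testes, against 1.25 and 0.938 FPKM in the control testes, and Atr exceeded it by 27.9 and 37.3 times in the hemicastrated testes, against 22.5 and 38.3 times in the control testes. Brca1, a ubiquitin ligase of repair, was at 0.872 and 0.840 FPKM in the hemicastrated testes, against 0.939 and 1.19 FPKM in the control testes. Chek2, the kinase downstream of ATM, was at 0.156 and 0.509 FPKM in the hemicastrated testes, against 0.275 and 0.366 FPKM in the control testes. Brca1 and Chek2 were under the filter and have no test.

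Trip13, the ATPase that remodels the chromosome axis, was at 1.26 and 1.51 FPKM in the hemicastrated testes, against 1.97 and 1.48 FPKM in the control testes. In the Fanconi anaemia pathway, which repairs crosslinks, Fancd2 was at 7.58 and 7.75 FPKM in the hemicastrated testes, against 8.14 and 8.28 FPKM in the control testes. The groups of Fancd2 did not overlap, although its log2 fold change was only -0.09. Its partner Fanci was at 4.34 and 3.60 FPKM in the hemicastrated testes, against 4.11 and 4.10 FPKM in the control testes, which made the ratio of Fancd2 to Fanci 1.74 and 2.15 in the hemicastrated testes, against 1.98 and 2.02 in the control testes. Fanci shares 15.95% of its exon bases with Polg on the opposite strand, at 16.9 and 15.8 FPKM in the hemicastrated testes and at 19.8 and 17.3 FPKM in the control testes. The level of Fanci and the ratio of Fancd2 to Fanci are thus uncertain. The translocase Fancm was at 0.703 and 0.783 FPKM in the hemicastrated testes, against 0.660 and 0.944 FPKM in the control testes. Fanca, of the core complex, was listed at 0 throughout, and so was Zfp276, which overlaps it on the opposite strand. A 0 in this table can be a failed estimate, since the ribosomal protein gene Rpl13 is also listed at 0 in all 4 libraries.

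Across the 35 tested members, differences between the groups stood to differences between mice of one group much as over all genes. The measures are unlike, since a difference of means of 2 libraries is set against the larger of 2 differences of single libraries. With no change at all the first would thus be the smaller in most genes. In 26 members the log2 fold change was smaller in size than the larger of the 2 differences within a group, and in 9 it was not (25.7%, against 28.5% of all genes tested). Of the 12 members whose groups did not overlap, 5 were higher and 7 lower in the hemicastrated testes, and over all genes tested 16.3% were so placed higher and 24.8% lower. The median absolute difference between the 2 hemicastrated libraries was 0.22 over the members and 0.14 over all genes, and that between the 2 control libraries was 0.12 and 0.13.

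**Figure D3:**
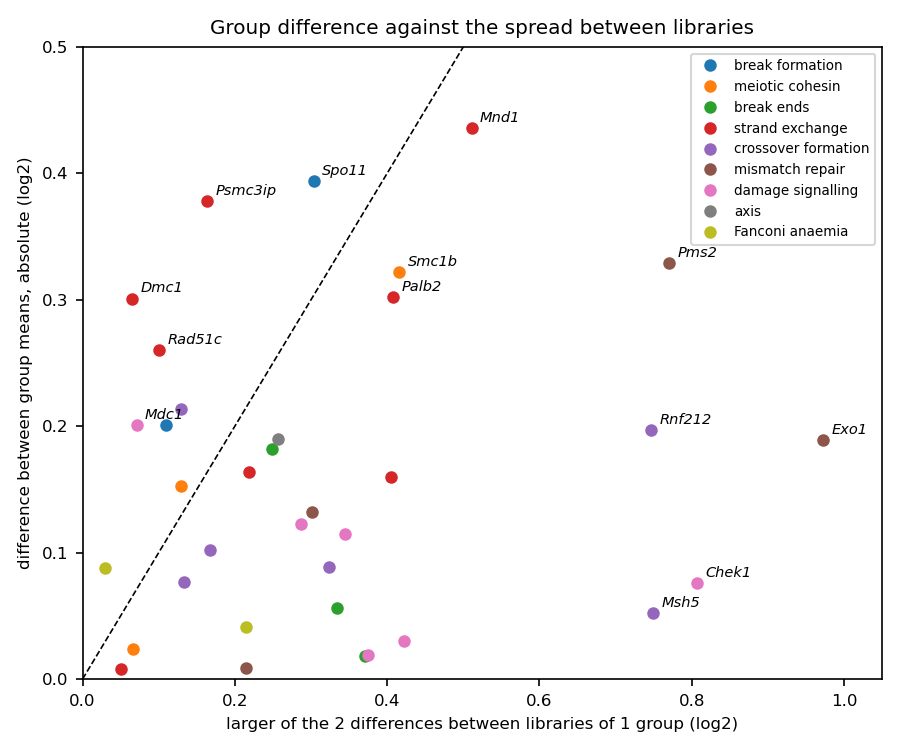
Absolute difference between the group means of each tested member against the larger of the differences between the 2 libraries of one group, both on the log2(FPKM + 1) scale and coloured by role. The dashed line marks equality: 9 members lie on or above it, among them Psmc3ip, Spo11, Dmc1 and Rad51c, while Exo1, Chek1, Pms2, Msh5 and Rnf212 lie far to its right.

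The sign of several members turned with single libraries. Without hemicastrated 1, the log2 fold change was 0.68 for Exo1, 0.57 for Rnf212, 0.43 for Msh5, 0.06 for Pms2 and -0.33 for Chek1. Without hemicastrated 2, it was -0.30 for Exo1, -0.18 for Rnf212, -0.32 for Msh5, -0.71 for Pms2 and 0.48 for Chek1. The sign turned between these settings in 16 of the 35 members. It was the same in all alternatives in which the gene was tested in 16 members, 8 positive (Rec8, Smc1b, Nbn, Rad51c, Psmc3ip, Meiob, Palb2 and Msh4) and 8 negative (Spo11, Mei1, Dmc1, Mnd1, Hfm1, Mdc1, Trip13 and Fancd2). The 12 members whose groups did not overlap are among these 16, and leaving out 1 library could not turn their sign. No filter, a mean of at least 5 FPKM, no trend and the replicate block do not alter the log2 fold change, so they could turn no sign.

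Genes classed as acting mainly in meiosis and the other members had medians near 0. Of the 16 members placed in the first class by textbook use, 13 were tested, with 7 positive and 6 negative log2 fold changes and a median of 0.05. Of the 26 others, 22 were tested, with 10 positive and 12 negative and a median of -0.01. These others are mixed, since they hold general repair genes and also Ccnb1ip1, Mlh3 and Trip13, given above with crossover or axis roles. By role, the median was -0.30 for the 2 tested break formation genes, 0.15 for 3 cohesin genes, 0.16 for 8 strand exchange genes and -0.05 for 6 signalling genes. The members lie on 15 chromosomes, with none on X.

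Other genes of recombination and repair, from lists that hold none of the members, were not called either. Of 103 tested genes in 10 lists, limma called 0 higher and 0 lower, and 2 had an unadjusted p under 0.05 (Hormad1 and Wee1). The log2 fold change was positive in 56 and negative in 47, with a median of 0.02. The axis gene Hormad1 was at 22.8 and 19.5 FPKM in the hemicastrated testes, against 14.7 and 15.1 FPKM in the control testes (log2 fold change 0.48, limma adjusted p = 0.19), with the sign opposite to that of Spo11. Medians of the lists ran from -0.12 for 11 nucleotide excision repair genes to 0.09 for 6 other genes of break formation. None of 6 end joining genes, 4 mismatch repair genes or 13 other crossover genes was called.

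The synaptonemal complex, which zips the homologues while recombination goes on, is the nearest set of genes. It had 7 of 8 tested genes positive, a median log2 fold change of 0.32, and 0 calls in limma, with 5 of its genes at an unadjusted p under 0.05. Syce3 in it was at 152 and 138 FPKM in the hemicastrated testes, against 109 and 113 FPKM in the control testes (log2 fold change 0.38, limma adjusted p = 0.17). The difference between its median and that of the members was not tested.

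**Figure D4:**
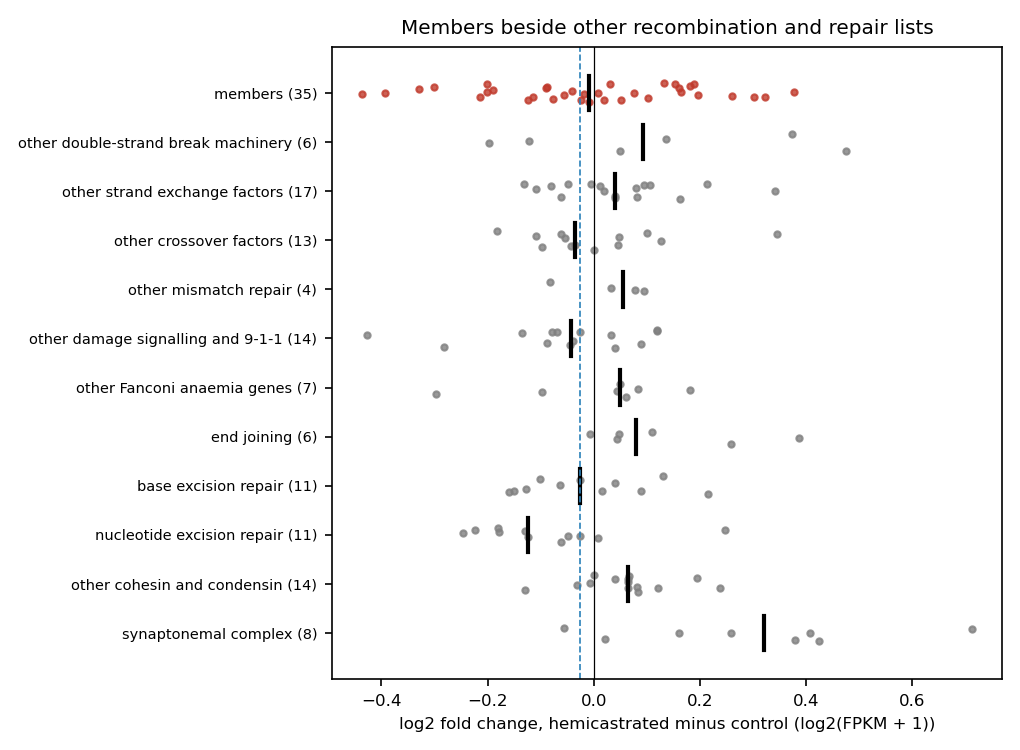
Log2 fold changes of tested genes, hemicastrated over control in log2(FPKM + 1), for the 35 members (red) and for 11 other lists (grey), with the number tested in brackets; vertical spread within a line is for display. Black bars are list medians, the solid line is 0 and the dashed line is the median of all genes tested (-0.026); the synaptonemal complex list has the highest median, at 0.32.

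Marker lists of germ cell stages, of somatic cells and of epididymis were read in the same libraries. Summed FPKM of 12 spermatogonial genes was 66.7 and 62.7 in the hemicastrated testes, against 71.6 and 68.4 in the control testes. Much of this sum is Uchl1, at 36.9 and 34.1 FPKM in the hemicastrated testes and at 37.6 and 38.0 FPKM in the control testes. Of the 10 tested spermatogonial genes 1 was positive and 9 negative, with a median of -0.09 and 1 at an unadjusted p under 0.05 (Ccnd2, lower). The sum of 12 genes of pachytene and dividing spermatocytes was 3660 and 4064 FPKM in the hemicastrated testes, against 3568 and 3681 FPKM in the control testes. Most of this second sum is Ldhc, at 2504 and 2891 FPKM in the hemicastrated testes and at 2503 and 2549 FPKM in the control testes, and the median log2 fold change of the 12 genes was 0.05. Of 12 round spermatid genes 11 were positive, with a median of 0.16, 4 at an unadjusted p under 0.05, and summed levels of 1486 and 1525 FPKM in the hemicastrated testes, against 1401 and 1393 FPKM in the control testes. Of 12 tested Sertoli genes 6 were positive, with a median of 0.10 and 3 at an unadjusted p under 0.05. Of 9 Leydig genes 3 were positive and 6 negative, with a median of -0.13 and 4 at an unadjusted p under 0.05. Limma called 1 of them lower (Ptgds), and whether its RNA came from Leydig cells was not tested. The groups did not overlap in 2 higher Leydig genes (Insl3 and Star) and in 3 lower ones (Cyp11a1, Lhcgr and Ptgds). Over all genes tested, 16.3% were so placed higher and 24.8% lower. Epididymal genes, 12 in number and partly listed with earlier results of these data known, summed to 7.38 and 11.5 FPKM in the hemicastrated testes and to 1549 and 2140 FPKM in the control testes; 8 of the 9 tested were lower by limma, while Lcn5 and Lcn8, named after their values were seen, were listed at 0 throughout. Of 9 tested smooth muscle and peritubular genes, 5 were lower by limma. No gene of the spermatogonial, spermatocyte, round spermatid or Sertoli lists was called. These markers come from the same libraries as the members, and their part in the values of the members was not tested.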

How the data were processed

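The values are FPKM as deposited by the authors, 1 per gene and library; per the submitters' processing notes TopHat2 2.0.11, Cufflinks 2.2.1 and GRCm38 were used, with no roles given, and no annotation is named. Read depth is unknown, so no counting interval is given. Summed FPKM was 343105 and 353135 in the hemicastrated libraries and 346632 and 344316 in the control libraries. Symbols and positions came from GENCODE M21 (GRCm38), which named 21806 of 22073 identifiers.

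The 11343 genes averaging at least 1 FPKM were compared as log2(FPKM + 1) by limma 3.58.1 under R 4.3.3, using a variance trend and no covariate, two-sided, with Benjamini-Hochberg adjustment over all of them and a threshold of 0.05. The script was first tested on simulated data. Shared sequence was sought among M21 exons and transcripts (BLAST). All 42 members are accounted for, and the 8 with the smallest p, as none was called, have SE and adjusted p; a few other genes follow a rule of up to 3 per list. Members and lists were chosen with earlier results of these data known. P-values rest on the spread between these 4 libraries, each taken as 1 mouse, with the variance of each gene drawn toward the trend over all genes tested. The alternatives were a pseudocount of 0.1, no filter, a mean of at least 5 FPKM, quantile normalization, TPM scaling, no trend, each library left out and a replicate block.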

Additional observations from a re-analysis of the deposited data

How the results depend on the processing

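No member was called by limma under any of the 11 alternatives, in which 2 to 4 members had an unadjusted p under 0.05 and the smallest adjusted p was 0.143 to 0.404. The median log2 fold change of the tested members was -0.009 with a pseudocount of 0.1, -0.021 with no filter (40 members), 0.014 with a mean of at least 5 FPKM (16 members), 0.037 under quantile normalization, -0.019 in TPM and -0.008 with no trend, and it ran from -0.052 to 0.035 when 1 library was left out, where a group keeps 1 library that is assumed to vary like the others. Over all genes 70 genes were called at a mean of 5 FPKM or more and 197 with the replicate block, against 147. The other settings that keep all 4 libraries called from 120 (no filter) to 143 (TPM). The log2 fold change of Psmc3ip ran from 0.30 to 0.46 and that of Spo11 from -0.55 to -0.24. The 8 members given with SE kept their sign, which leaving out 1 library could turn only for Smc1b and Palb2, whose groups overlap. Leaving out 1 library moved the value of Smc1b to between 0.12 and 0.53, of Palb2 to between 0.10 and 0.51 and of Mnd1 to between -0.69 and -0.18. In 19 members the sign changed under at least 1 alternative. The number of members whose 95% interval lay within 1 to either side of 0 was 29 of 35 with a pseudocount of 0.1 and 29 of 35 without control 2. With the replicate number as a block, 0 members were called and the median was -0.008. The numbers in the titles were not taken as pairs in the main test. The correlation of deviations of same-numbered libraries was 0.014 over genes. With 2 libraries a group this is a single value, and it cannot exclude that same-numbered libraries were handled together. Unknown read depth limits what can be said of members under 1 FPKM.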
